A study of Mus musculus with 12 samples.

Results

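The 6 mouse genes described here encode the conventional actins: Acta1 (skeletal muscle alpha-actin), Actc1 (cardiac alpha-actin), Acta2 (smooth muscle alpha-actin), Actg2 (smooth muscle gamma-actin), Actb (beta-actin) and Actg1 (cytoplasmic gamma-actin). They were chosen by name, and each is represented by the array probe set annotated to that gene alone. This held for 5 of the 6 genes, each with 1 probe set, out of 19938 genes in all that had a probe set of their own. Actg1 has no value here, because the 4 probe sets that carry its name are annotated to Actb as well.

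Actin monomers assemble into the thin filaments of muscle and into the cytoskeleton of all cells. The adult rodent ventricle relies mainly on cardiac alpha-actin, and skeletal alpha-actin, which is used in the fetal heart, is known to return in loaded muscle cells. Smooth muscle alpha-actin marks vessel walls and contractile fibroblasts, smooth muscle gamma-actin is typical of gut and bladder, and the beta and cytoplasmic gamma forms build the cytoskeleton. Transcription of several actin genes is driven by serum response factor (Srf), which binds a short element called the CArG box, together with the coactivators Mrtfa, Mrtfb and Myocd.

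The samples were ventricles of male C57BL/6 mice, measured on 12 whole-transcript arrays, 2 in each of 6 groups. In 3 groups a clip had been closed around the pulmonary artery (PAC), and the right ventricle (RV) was taken 1, 3 or 6 weeks later at 13, 15 or 18 weeks of age, with sham RV at 3 weeks and 15 weeks of age as their control. Left ventricle (LV) came from mice with transaortic constriction (TAC) and from sham mice, both 3 weeks after the operation and 15 weeks old. Whether sham RV and sham LV came from the same hearts is not given by the labels, and their arrays were compared as unpaired. The septum was dissected away as a separate piece, and the labels do not say whether an array stands for 1 animal, so the p-values below measure the spread between arrays, which may be partly technical. Since sham RV was sampled only at 3 weeks, obstruction cannot be told apart from age and time since the operation in the 1 and 6 week comparisons.

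Ventricular muscle markers averaged between 13.18 and 13.3 (log2) on all arrays, so markers of the labelled tissue were present. The atrial muscle list was uneven between arrays of 1 group: it averaged 9.32 and 10.53 at 1 week of PAC and 8.59 and 9.78 at 3 weeks, and 8.07 and 9.18 in sham LV. Results at 1 and 3 weeks are therefore also given without the second array of each of these 3 groups, called the 3 arrays high in atrial markers below. The first 1 week PAC array was kept in, although its 9.32 lay above the 9.18 of the sham LV array left out. The 1 week result in that setting thus still rests on an array high in atrial markers. Correlations between the mates of a group lay between 0.992 and 0.997, and array medians between 6.32 and 6.4.

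The promoters of Acta1, which had the largest differences, of Actc1, which varied least, and of Acta2, which was called in the right ventricle, are printed so that their CArG-like elements can be compared. RefSeq promoter sequences (build GRCm38.p6) matched 4 of the 6 genes, namely these and Actg1. The 250 bases before each start site are given 5′ to 3′ on the gene's own strand, which is the minus strand in all 3. Capitals mark CArG boxes (CC, then 6 bases that are each A or T, then GG) and boxes in which 1 of the 6 inner bases is G or C.
Acta1, chr8:123894776-123895025: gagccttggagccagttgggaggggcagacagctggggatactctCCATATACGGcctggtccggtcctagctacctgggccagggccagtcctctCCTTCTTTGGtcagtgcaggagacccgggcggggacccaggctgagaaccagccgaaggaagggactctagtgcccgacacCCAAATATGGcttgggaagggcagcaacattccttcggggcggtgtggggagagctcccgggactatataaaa
Actc1, chr2:114052876-114053125: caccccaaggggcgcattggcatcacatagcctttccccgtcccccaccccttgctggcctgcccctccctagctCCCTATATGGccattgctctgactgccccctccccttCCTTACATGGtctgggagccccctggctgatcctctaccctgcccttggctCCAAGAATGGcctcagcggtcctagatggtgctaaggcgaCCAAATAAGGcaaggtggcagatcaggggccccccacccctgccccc
Acta2, chr19:34255374-34255623: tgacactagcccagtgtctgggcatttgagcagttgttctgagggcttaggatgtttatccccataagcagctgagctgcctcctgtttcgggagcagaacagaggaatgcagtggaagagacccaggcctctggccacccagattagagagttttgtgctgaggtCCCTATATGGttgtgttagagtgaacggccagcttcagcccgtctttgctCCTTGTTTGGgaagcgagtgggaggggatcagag

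Acta1 held 1 full CArG box, from 73 to 64 bases before the start, and 2 boxes with 1 inner G or C. Actc1 held 1 full box, from 47 to 38 bases before the start, and 3 of the looser kind. Acta2 held no full box and 2 looser ones, at 84 to 75 and 34 to 25 bases. The window of Actg1 held 1 full box, at 90 to 81 bases. Among all 32851 promoter windows of this length 1.47% held a full box and 7.24% a looser one. The motif reads the same on both strands, and a full and a looser match are by definition different sites. These are matches of letters only, and the files hold no measurement of binding.

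**Figure D1:**
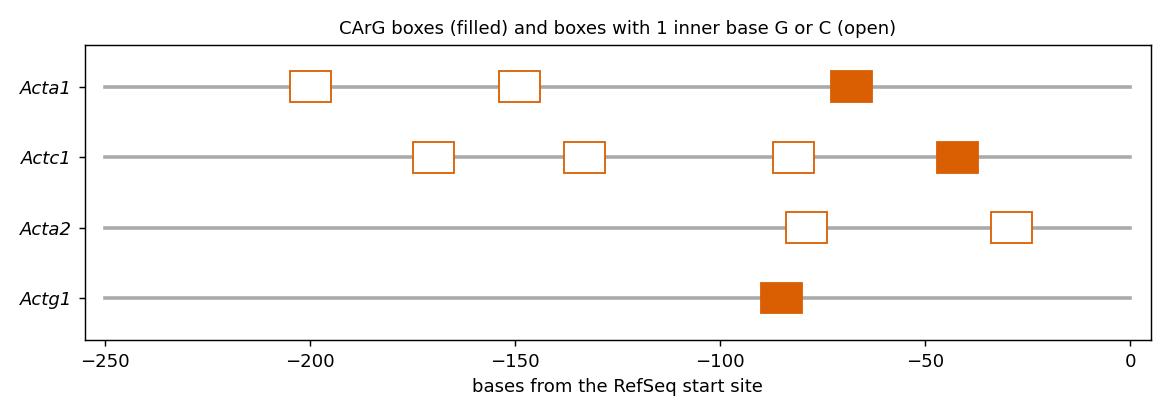
Positions of CArG boxes (filled) and of boxes with 1 inner base G or C (open) in the 250 bases before the RefSeq start site, in bases from that site, for the 4 actin genes with a promoter sequence. Acta1, Actc1 and Actg1 each have 1 filled box, and Acta2 has 2 open ones.

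Acta1 rose in the clipped right ventricle at every time. Its log2 level was 12.59 and 13.2 at 1 week of PAC, 12.65 and 12.18 at 3 weeks and 12.4 and 12.92 at 6 weeks, against 9.91 and 10.9 in sham RV. All 6 PAC arrays lay above both sham RV arrays, and the 2 sham arrays lay farther apart than the mates of any other group. The differences from sham RV were 2.49 ± 0.31 (limma standard error) at 1 week (5.63-fold, limma adjusted p = 0.0034), 2.01 ± 0.31 at 3 weeks (4.03-fold, adjusted p = 0.018) and 2.26 ± 0.31 at 6 weeks (4.78-fold, adjusted p = 0.0075). In such tissue pieces a change in the number of cells of a type and a change in RNA per cell cannot be told apart.

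The time points of PAC did not separate for Acta1. The 3 week level differed from the 1 week level by -0.48 (95% interval -1.17 to 0.21), the 6 week level from the 3 week level by 0.25 (-0.44 to 0.94) and from the 1 week level by -0.24 (-0.93 to 0.45). Their arrays overlapped in each of these pairs. Over the 3 times together Acta1 averaged 12.66 ± 0.37 (SD, n = 6 arrays) after PAC and 10.4 ± 0.7 in sham RV (n = 2), a difference of 2.25 ± 0.26 (4.77-fold, limma adjusted p = 0.0027).

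The 1 week call and the call over all times passed under all 19 alternatives tried, and the other 2 calls were lost when certain single arrays were left out. Some of the 19 could change only the adjusted p and not the difference itself. These were the mean over probe sets and the leaving out of an array of a group not compared. At 3 weeks adjusted p was 0.14 without the second PAC array, 0.069 and 0.071 without the first and second sham RV array, and 0.094 without the 3 arrays high in atrial markers. At 6 weeks it was 0.09 without the second PAC array. The difference was between 1.52 and 2.5 at 3 weeks and between 1.76 and 2.75 at 6 weeks when any 1 array was left out.

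**Figure D2:**
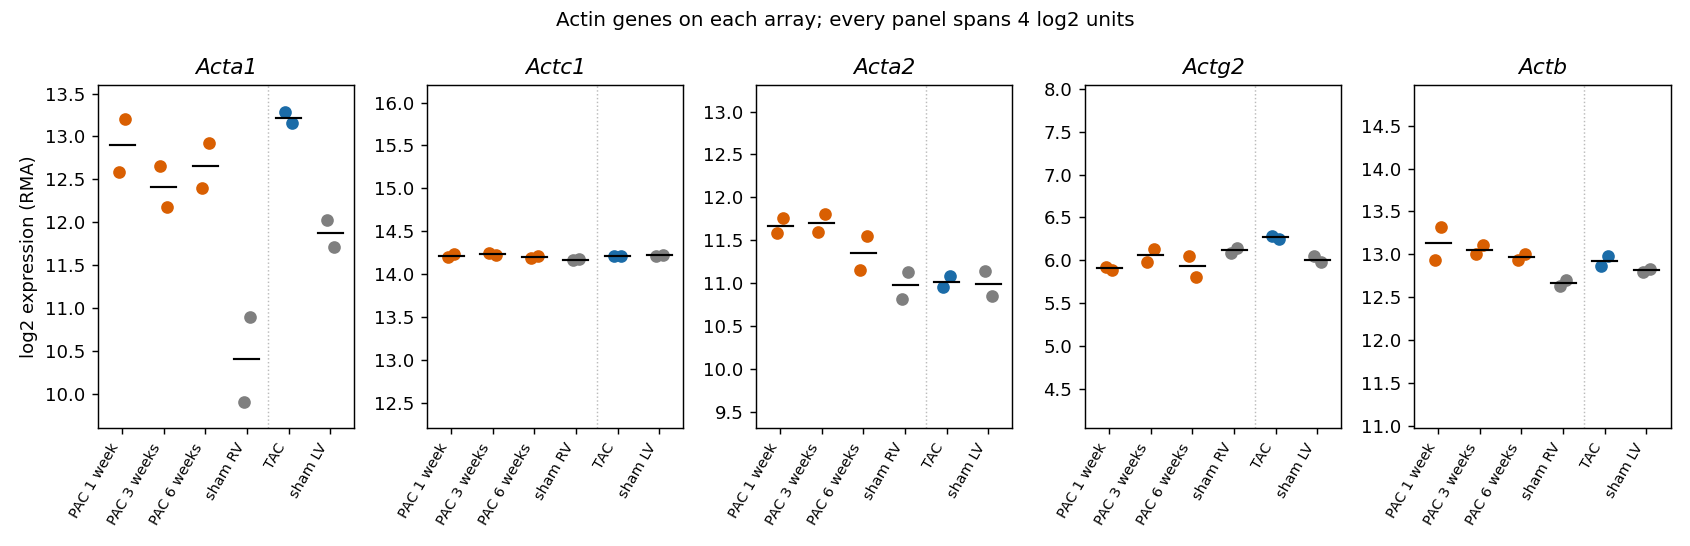
Log2 expression of 5 actin genes on each of the 12 arrays (points) with the group mean (line), for PAC at 1, 3 and 6 weeks and sham RV on the left of each panel and TAC and sham LV on the right. Every panel spans 4 log2 units, so that the spread of Acta1 (9.91 to 13.29) can be set against that of Actc1 (14.16 to 14.25).

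In the left ventricle Acta1 stood at 13.29 and 13.16 after TAC, against 12.02 and 11.71 in sham LV. These groups did not overlap, and the difference was 1.36 ± 0.31 (2.57-fold, 95% interval 0.67 to 2.05, unadjusted p = 0.0013), but it did not pass over all genes (limma adjusted p = 0.98). No gene at all passed in TAC (0% of 19938 genes, 963 at an unadjusted p under 0.05), so the 0 of 5 actin genes that passed there, 2 of them at an unadjusted p under 0.05, are no result about these genes. The PAC change at 3 weeks exceeded the TAC change by 0.65 ± 0.44 (interval -0.33 to 1.63, adjusted p = 0.55), with 0% of genes called in that comparison too (2381 at an unadjusted p under 0.05).

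Acta1 was also compared between the sham ventricles. Sham RV lay 1.46 below sham LV on the log2 scale (10.4 ± 0.7 against 11.87 ± 0.21, n = 2 each, interval of the difference -2.15 to -0.77), with no overlap of arrays. This just missed the threshold (limma adjusted p = 0.061), where 0.411% of genes passed. It did pass without genes below the median level (limma adjusted p = 0.026) and, narrowly, without either 1 week PAC array. After obstruction at 3 weeks PAC stood 0.81 below TAC (12.41 ± 0.33 against 13.22 ± 0.1, interval of the difference -1.5 to -0.12, adjusted p = 0.64, 0.0201% of genes called). Ordered by mean, TAC was followed by PAC at 1, 6 and 3 weeks, whose neighbours overlapped, then by sham LV and sham RV, each clear of the group above it.

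Acta1 is also the main actin of skeletal muscle. Of 12 skeletal muscle markers over all PAC times 1 rose and 5 fell (median -0.29, against -0.05 over all genes, of which 24.8% passed in either direction). The 1 that rose was Mybpc2, a fast myosin-binding protein (1.24 ± 0.16, limma adjusted p = 0.0035). The genes that fell were Tnni2, Myog, Cacna1s, Myh4 and Tnnt3 (-0.52 to -0.25). Among them Myh4 is a fast myosin heavy chain, and the fast light chain Mylpf stood at -0.29 ± 0.11 (adjusted p = 0.083). The mean of the list was 5.86 to 6.05 on PAC arrays and 6.12 and 6.19 on sham RV arrays, below every array's median. The atrial list was higher beside Acta1 in the right ventricle, with 5 of 7 genes called higher over all PAC times (median 2.48). Its mean was 8.47 to 10.53 on PAC arrays and 7.61 and 7.08 in sham RV, but 8.34 and 8.28 in TAC and 8.07 and 9.18 in sham LV. The called genes were Myl7, Myl4, Nppa, Dkk3 and Sln (1.25 to 2.75), of which Myl7, an atrial light chain, had an adjusted p of 0.017. Bmp10, a growth factor of atrial muscle, was 8.55 and 10.5 at 1 week, 4.52 and 8.79 at 3 weeks and 4.79 and 4.52 at 6 weeks of PAC, against 4.28 and 4.64 in sham RV. Myl7 was 9.58 and 11.02 at 1 week, 9.48 and 10.28 at 3 weeks and 8.82 and 9.52 at 6 weeks, against 8.13 and 5.93 in sham RV, so it was higher on every PAC array. The part of the atrial markers in the Acta1 result was not tested.

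Actc1 varied least of the 5 genes. It lay between 14.16 and 14.25 on all 12 arrays, with only 1 gene above it by mean level and with 14.78 as the highest value on any array. Its level was 14.2 and 14.23 at 1 week of PAC, 14.25 and 14.22 at 3 weeks and 14.19 and 14.21 at 6 weeks, against 14.16 and 14.18 in sham RV. It was 14.21 and 14.21 in TAC and 14.21 and 14.22 in sham LV. All PAC arrays lay above sham RV by a margin of hundredths. Over all PAC times the difference was 0.04 ± 0.06, with an interval of -0.09 to 0.18 (limma adjusted p = 0.6), and for TAC it was -0.01 (interval -0.17 to 0.16).

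Single actin values were also tested across both chambers. Within chambers, obstructed arrays were set against sham arrays over all 168 assignments of the labels, in a two-sided exact permutation test of 7 values adjusted together. Acta1 was higher after obstruction by 1.81 (2.25 in RV, 1.36 in LV, exact p = 0.006, adjusted p = 0.014), with 8 of 8 obstructed arrays above the sham arrays of their chamber. Actc1 gave 0.02 (exact p = 0.095, adjusted p = 0.13). Acta1 minus Actc1 gave 1.79 (exact p = 0.006, adjusted p = 0.014), which adds nothing to Acta1, since Actc1 spanned 0.08. Whether the Actc1 probe set was saturated was not tested, so its narrow range does not show that its RNA was unchanged. An exact p of 0.006 is the smallest this design can give. Left without 1 sham RV array, where the smallest p is 0.024, Acta1 did not pass (adjusted p of the exact test 0.083 without the first and 0.056 without the second).

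**Figure D3:**
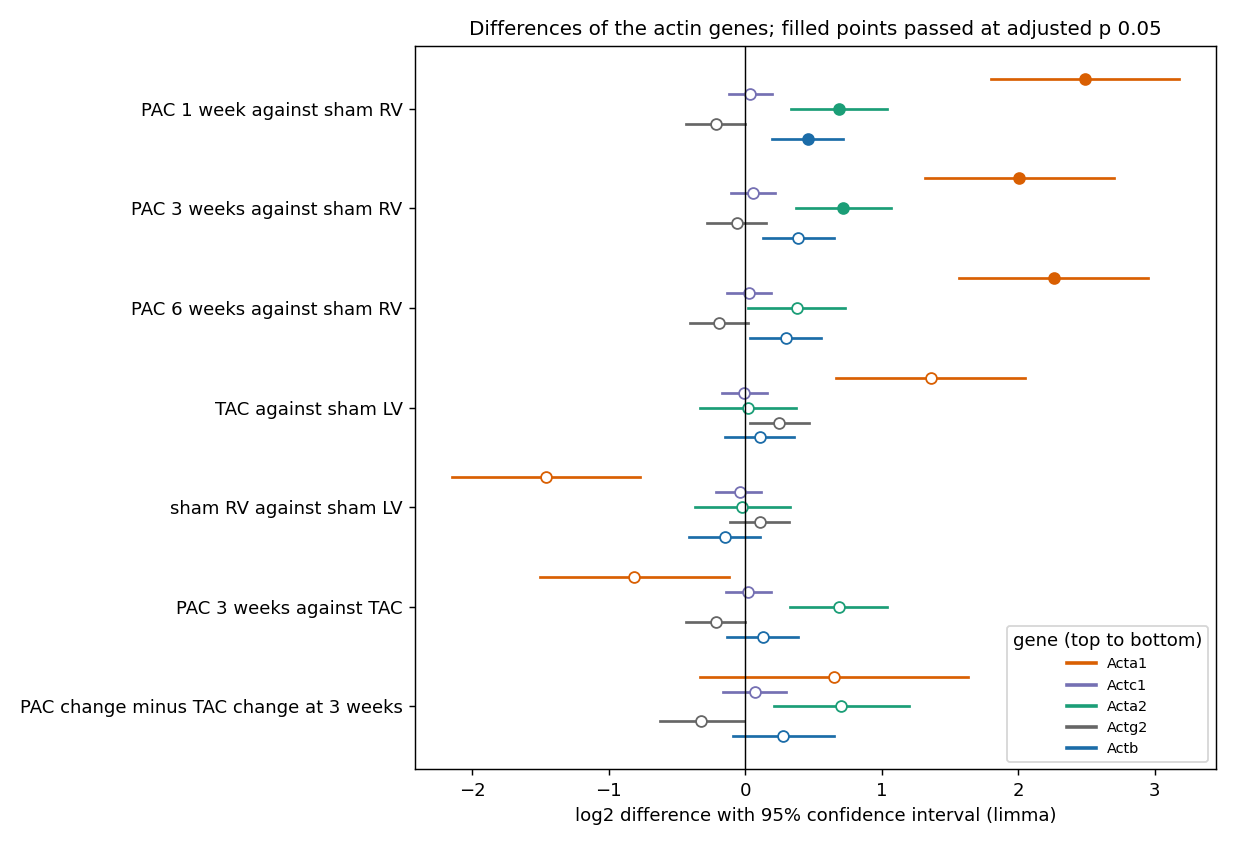
Log2 differences of 5 actin genes in 7 comparisons, as points with 95% confidence intervals from limma; filled points passed at an adjusted p of 0.05. Acta1 is filled in the 3 PAC comparisons, Acta2 at 1 and 3 weeks, Actb at 1 week, and no point is filled for TAC or between chambers.

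Acta2 rose in the right ventricle at 1 and 3 weeks of PAC, and its TAC level overlapped sham LV. Its level was 11.58 and 11.76 at 1 week of PAC, 11.6 and 11.8 at 3 weeks and 11.15 and 11.55 at 6 weeks, against 10.82 and 11.13 in sham RV. TAC arrays stood at 10.95 and 11.08 and sham LV arrays at 11.14 and 10.85. All PAC arrays thus lay above sham RV, the 6 week pair lay below the earlier PAC pairs, and TAC and sham LV overlapped. The difference from sham RV was 0.69 ± 0.16 at 1 week (1.61-fold, limma adjusted p = 0.021), 0.72 ± 0.16 at 3 weeks (1.65-fold, adjusted p = 0.034) and 0.38 ± 0.16 at 6 weeks (1.3-fold, adjusted p = 0.14). Over all times it was 0.6 ± 0.13 (1.51-fold, adjusted p = 0.013). Of 19 alternatives, 5 lost the call at 1 week, 8 at 3 weeks and 2 over all times. With only the arrays compared limma adjusted p was 0.061 at 1 week. Under another scaling (cyclic loess) it was 0.054 at 3 weeks. The 3 week call was also lost without either TAC array and without the first 3 week PAC array.

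For TAC the difference of Acta2 was 0.02 with an interval of -0.33 to 0.37. The PAC change exceeded the TAC change at 3 weeks by 0.7 ± 0.23 (interval 0.21 to 1.2, unadjusted p = 0.01), which did not pass over all genes (limma adjusted p = 0.37). PAC at 3 weeks stood 0.69 ± 0.16 above TAC (adjusted p = 0.45), and the sham ventricles differed by -0.02 (interval -0.37 to 0.33). The 6 week level minus the 3 week level of PAC was -0.35 (interval -0.7 to 0.01, adjusted p = 1), and 0.0201% of genes were called between these times. Without the second 1 week PAC array adjusted p at 1 week was 0.12, and without the second 3 week array it was 0.22 at 3 weeks. Without the first and second sham RV array it was 0.098 and 0.059 at 1 week and 0.12 and 0.1 at 3 weeks. Without the 3 arrays high in atrial markers it was 0.14 at 1 week, 0.18 at 3 weeks and 0.047 over all times. Over all times it was 0.11 and 0.058 without the first and second sham RV array.

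Of 9 smooth muscle markers over all PAC times 1 rose and 3 fell, where 24.8% of all genes passed, with a median of -0.08 against -0.05 over all genes. Rgs4, a regulator of G protein signalling, rose by 0.7 ± 0.13 (limma adjusted p = 0.0077), while the contractile partners Synpo2 (-0.38 ± 0.09), Lmod1 (-0.32 ± 0.08) and the receptor Ntrk3 (-0.28 ± 0.07) fell. Myh11, the smooth muscle myosin, stood at -0.08 ± 0.12 (adjusted p = 0.62), the thin filament protein Tagln at 0.0 ± 0.22 (adjusted p = 0.99) and calponin Cnn1 at 0.05 ± 0.22 (adjusted p = 0.88). The list averaged 7.56 to 7.83 on PAC arrays and 7.77 and 7.85 in sham RV.

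Pericyte and fibroblast markers are given beside Acta2, again against 24.8% of all genes called over all PAC times. At 1, 3 and 6 weeks 18.4%, 5.76% and 9.25% of all genes passed. Of 9 pericyte markers 4 rose and 0 fell over all PAC times (median 0.29; 1, 4 and 4 at 1, 3 and 6 weeks), among them Vtn (0.51 ± 0.09) and the receptor Pdgfrb (0.48 ± 0.08), and the list averaged 8.97 to 9.29 on PAC arrays against 8.9 and 8.92 in sham RV. Of 10 activated fibroblast markers 8 rose and 0 fell (median 1.65), with the matrix protein Postn at 3.1 ± 0.42 (limma adjusted p = 0.0036). This list averaged 7.42 to 9.32 after PAC and 6.59 and 6.64 in sham RV. In the left ventricle it averaged 7.2 and 7.5 after TAC and 7.08 and 6.76 in sham LV. Of 11 fibroblast markers 8 rose (median 1.32), Col1a1, a fibrillar collagen, by 1.65 ± 0.31. Without the first and second sham RV array the medians were 0.25 and 0.26 for pericytes and 1.54 and 1.65 for activated fibroblasts. For fibroblasts they were 1.4 and 1.23. Fewer genes of each list were then called, as was so over all genes. The part of these lists in the Acta2 result was not tested.

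**Figure D4:**
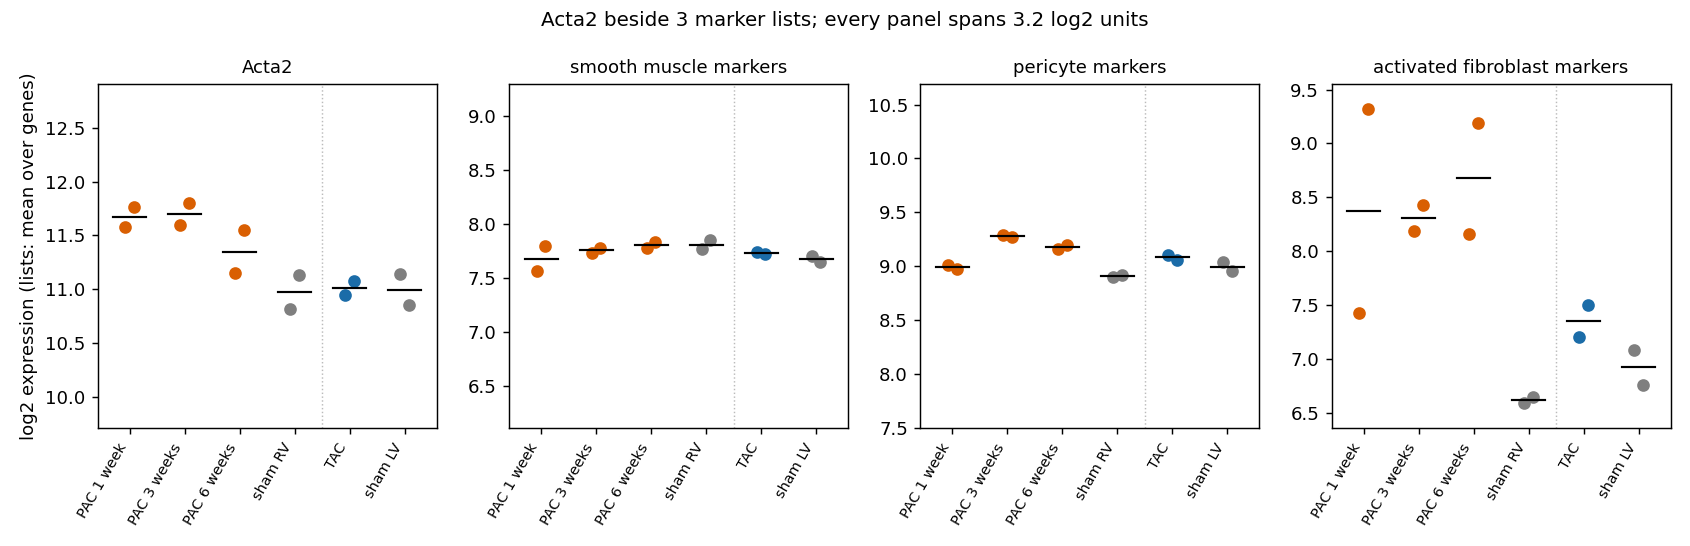
Log2 level of Acta2 beside the mean log2 level of smooth muscle, pericyte and activated fibroblast markers on each array (points) with group means (lines); every panel spans 3.2 log2 units. PAC arrays lie above sham RV for Acta2, pericyte and activated fibroblast markers; for smooth muscle markers they run from 7.56 to 7.83, beside 7.77 and 7.85 in sham RV.

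Actb rose slightly after clipping. Its level was 12.94 and 13.32 at 1 week of PAC, 13 and 13.11 at 3 weeks and 12.94 and 13 at 6 weeks, against 12.63 and 12.7 in sham RV. All PAC arrays lay above both sham arrays, and the second 1 week array was the highest of the series. The difference was 0.46 ± 0.12 at 1 week (1.38-fold, limma adjusted p = 0.028), 0.39 ± 0.12 at 3 weeks (adjusted p = 0.07) and 0.3 ± 0.12 at 6 weeks (adjusted p = 0.12). Over all times it was 0.38 ± 0.1 (1.3-fold, adjusted p = 0.02). Of 19 alternatives, 5 lost the call at 1 week and 2 over all times, while Actb passed under 5 at 3 weeks and 2 at 6 weeks. Without the second 1 week array the 1 week difference was 0.27 (adjusted p = 0.17). Without the first and second sham RV array adjusted p at 1 week was 0.1 and 0.095, and over all times 0.11 and 0.1.

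Actb was 12.87 and 12.98 in TAC, against 12.8 and 12.83 in sham LV. The TAC arrays lay just above the sham arrays, and the difference of 0.11 had an interval of -0.15 to 0.36 (limma adjusted p = 0.98). The exact permutation test within chambers gave 0.24 for Actb (exact p = 0.006, adjusted p = 0.014, higher in 8 of 8 obstructed arrays, adjusted p 0.11 and 0.056 without the first and second sham RV array) and 0.31 for Acta2 (exact p = 0.036, adjusted p = 0.062). Acta2 passed that test without the first sham LV array (adjusted p = 0.021) and without the first 6 week PAC array (adjusted p = 0.042). Sham RV lay 0.15 below sham LV (12.67 ± 0.05 against 12.82 ± 0.02), with an interval of the difference of -0.41 to 0.11. Actb is often used to scale expression, and here its level spanned 0.69 log2 units over the arrays.

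Actg2 was the only measured actin below the median level of the arrays. It lay between 5.81 and 6.28, below the array median on all 12 arrays, with 61.7% of genes higher by mean level. Its level was 5.92 and 5.89 at 1 week of PAC, 5.98 and 6.13 at 3 weeks and 6.05 and 5.81 at 6 weeks, against 6.09 and 6.15 in sham RV, and 6.28 and 6.25 in TAC, against 6.05 and 5.98 in sham LV. No comparison passed for it. TAC stood 0.25 above sham LV (interval 0.04 to 0.47, limma adjusted p = 0.98), and the PAC change minus the TAC change at 3 weeks was -0.32 ± 0.14 (interval -0.62 to -0.01, adjusted p = 0.41). The median of probe sets without a listed gene was 5.65 to 5.79.

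Counted together, 3 of 5 measured actin genes rose and 0 fell at 1 week of PAC, where 18.4% of all genes passed. At 3 weeks it was 2 of 5 against 5.76% of genes, at 6 weeks 1 of 5 against 9.25%, and over all times 3 of 5 against 24.8%. Between PAC times 0 of 5 passed by limma (0 also at an unadjusted p under 0.05), where 0.0552% of genes were called for 3 against 1 week and 0.0953% for 6 against 1 week. The PAC comparisons share the same 2 sham RV arrays, and the counts over all genes rest on them. Without the first and second sham RV array, 3675 genes at 1 week became 1090 and 227, 1148 at 3 weeks became 51 and 3, 1844 at 6 weeks became 527 and 99, and 4941 over all times became 1520 and 296. Without the second sham RV array, 1.48% of all genes passed over all PAC times, and no more than 1 gene of any gene list.

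Srf, the factor upstream of several actin genes, was not called. Its level was 9.04 to 9.22 after PAC and 9.08 and 9.12 in sham RV, a difference of 0.04 ± 0.07 over all times (limma adjusted p = 0.65). The coactivators stood at 0.16 ± 0.12 (Mrtfa, adjusted p = 0.33), -0.06 ± 0.07 (Mrtfb, adjusted p = 0.5) and -0.21 ± 0.08 (Myocd, adjusted p = 0.086). Of the 8 genes of this list 3 rose and 0 fell over all PAC times (median 0.1, against -0.05 over all genes), where 24.8% of all genes passed. They were Scai, which restrains Mrtf proteins (0.7 ± 0.08, adjusted p = 0.0021), Abra, a muscle protein that promotes their entry into the nucleus (0.59 ± 0.14, adjusted p = 0.017), and the Srf partner Elk4 (0.24 ± 0.07, adjusted p = 0.043).

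Abra differed between 1 and 6 weeks of PAC. Its level was 8.15 and 8.51 at 1 week of PAC, 9.27 and 9.03 at 3 weeks and 9.32 and 9.75 at 6 weeks, against 8.32 and 8.51 in sham RV. The 1 week arrays overlapped sham RV (-0.08 ± 0.17), while it rose at 3 weeks (0.73 ± 0.17, limma adjusted p = 0.04) and at 6 weeks (1.12 ± 0.17, adjusted p = 0.01). The 6 week level exceeded the 1 week level by 1.2 ± 0.17 (adjusted p = 0.039), where 0.0953% of genes were called. The 19 genes called there became 1 with only the arrays compared and 83 with the other variance prior. Values of Abra under these alternatives are not given here. A link between Abra and Acta1 was not tested. Sham RV minus sham LV was -0.89 ± 0.17 for Abra, which just missed the threshold (adjusted p = 0.05).

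RNAs of actin-binding proteins are given over all PAC times, where 24.8% of all genes passed. At 1, 3 and 6 weeks 18.4%, 5.76% and 9.25% of all genes passed. Of 22 genes for monomer binding and turnover 10 rose and 0 fell (median 0.25). By time, 7, 3 and 3 were called at 1, 3 and 6 weeks (medians 0.39, 0.17 and 0.22). Genes that rose included the depolymerising factor Dstn (0.86 ± 0.11, limma adjusted p = 0.0033), the monomer recycling protein Cap1 (0.59 ± 0.11) and the filament-binding Coro1c (0.5 ± 0.12). Of 26 measured crosslinkers and filament partners 14 rose and 0 fell (median 0.47). By time, 11, 2 and 3 were called at 1, 3 and 6 weeks (medians 0.51, 0.43 and 0.39). Examples were the intercalated disc protein Xirp2 at 1.15 ± 0.21, plastin Pls3 at 0.79 ± 0.1, filamin Flna at 0.64 ± 0.14 and moesin Msn at 0.63 ± 0.16. Of 22 measured genes for filament ends and nucleation 7 rose and 1 fell (median 0.11). By time, 7, 4 and 4 were called at 1, 3 and 6 weeks (medians 0.11, 0.04 and 0.15). Arpc5, a subunit of the branching complex, rose by 0.82 ± 0.12 and the capping subunit Capza1 by 0.56 ± 0.1. The gene that fell was Fhod3 (-0.52 ± 0.1, adjusted p = 0.0081), a formin needed to build sarcomeres, named after its value was seen. Without the first and second sham RV array the medians of these 3 lists were 0.27 and 0.25, 0.43 and 0.52, and 0.05 and 0.14. Fewer genes of each list were then called, as was so over all genes. These lists were written with earlier results of the series known, and the difference between them was not tested.

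Folding and sarcomeric partners were called at shares near the 24.8% of all genes. Of 15 measured genes for folding and modification of actin 2 rose, the prefoldin subunit Vbp1 (0.54 ± 0.12) and the chaperonin subunit Cct6a (0.25 ± 0.07), and 1 fell, the prefoldin subunit Pfdn5 (-0.25 ± 0.08), with a median of 0.06. Of 9 thin filament proteins of heart muscle 0 rose and 2 fell (median -0.08), the slow skeletal troponin Tnnt1 (-0.41 ± 0.12) and cardiac troponin Tnni3 (-0.3 ± 0.07). The end-binding proteins Lmod2 (0.13 ± 0.07, limma adjusted p = 0.18) and Tmod1 (-0.1 ± 0.06, adjusted p = 0.25) were not called. In TAC, where 0% of all genes passed, the medians of the 6 lists lay between -0.04 and 0.17.

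Across the 12 arrays each actin gene had different nearest genes. The level of Actb ran most closely with the tubulin gene Tubb5 (Pearson r = 0.984, Spearman rho = 0.937), Coro1c (r = 0.979) and Cap1 (r = 0.977). Acta1 ran with the ciliary transport gene Ift122 (r = 0.962), the muscle gene Klhl31 (r = 0.96) and Mapre2 (r = 0.942), a microtubule end-binding protein. Acta2 ran with the TGF-beta receptor Tgfbr2 (r = 0.947), Ywhab (r = 0.936) and the basement membrane protein Nid1 (r = 0.934). For Actc1 the highest were Slc39a10 (r = 0.92), Tmem123 (r = 0.906) and E2f3 (r = 0.876), over a range of 0.08 log2 units. For Actg2 they were Mrps18a (r = 0.865), Syp (r = 0.858) and Nap1l4 (r = 0.851). These correlations describe 12 arrays that share groups and normalization.

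Remaining marker lists are given for all PAC times against sham RV, where 24.8% of all genes passed. At 1, 3 and 6 weeks 18.4%, 5.76% and 9.25% of all genes passed. Macrophage markers had 4 of 12 higher, Cx3cr1, Cd14, Adgre1 and Mrc1 (list median 0.44). By time, 10, 0 and 0 of 12 were higher at 1, 3 and 6 weeks (medians 0.73, 0.39 and 0.11). Endothelial markers had 9 of 10 higher (median 0.29; 4, 6 and 1 at 1, 3 and 6 weeks) and ventricular muscle markers 1 higher (Mybpc3) and 2 lower (Ryr2 and Tnni3) of 10 (median -0.06). Epicardial and erythroid markers had 0 of 8 and 0 of 2 genes passing by limma (medians 0.04 and -0.05). At 1 week, when Acta1, Acta2 and Actb were called, 18.4% of all genes passed. Of 8 epicardial markers 3 were then higher (median 0.7), among them Aldh1a2, a retinoic acid enzyme (1.42 ± 0.37, limma adjusted p = 0.03). The part of these lists in the actin results was not tested.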

How the data were processed

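RNA of 12 ventricular samples was measured on Affymetrix whole-transcript arrays. The deposited log2 values were made by the authors with RMA in Affymetrix Power Tools, per the submitters' processing notes, which as used here carry no versions. The values of 35556 probe sets were used as deposited, and RMA pulls arrays to 1 distribution, so differences are relative to the other genes. In the platform annotation 21789 probe sets name 1 gene, 1621 several and 12146 none here. Where several probe sets named 1 of the 19938 genes, the one highest on average represented it.

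All 6 groups were fitted together with lmFit and eBayes in limma 3.58.1 (R 4.3.3), with Benjamini-Hochberg adjustment over all genes and a threshold of 0.05; 2 arrays per group limit the precision. The fit was tested on simulated data. A single value between groups of 2 arrays cannot go below p = 0.33 in an exact test, so the exact permutation test pooled obstructed arrays within chambers. Tests of Actg1, and of Actb minus Actg1, could not be made, which left 7 values to adjust over.

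The members and the 6 pathway and 11 marker lists were chosen with earlier results of these data known. Of 198 list genes 191 were measured. Named genes were the actins, Srf and its coactivators, up to 4 genes of each list that passed by size of change (otherwise by smallest p), fixed comparison markers, and the 3 genes most correlated with each actin. Where 5 or fewer genes of a list passed, others were named after their values were seen, and so were Tnnt3 and Fhod3 of longer lists. Coro1c and Cap1 are named under both the list and the correlation. Alternatives were another scaling, mean of probe sets, a filter on low genes, another variance prior, only the arrays compared, the replicate block and each array left out; leaving out 3 arrays high in atrial markers, and list counts without single sham RV arrays, were added after seeing the data. Replicate numbers were not taken to pair arrays, since only 5 of 15 group pairs correlated above 0.1 (-0.241 to 0.37). The pairs between PAC groups were the highest (0.263, 0.37 and 0.261). Acta2 and Actb were also higher on the second array than on the first at every PAC time. What the replicate numbers stand for is not given by the labels.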

Additional observations from a re-analysis of the deposited data

Results flagged for a closer look

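The estimates for Actc1 had opposite signs in the ventricles at 3 weeks, but neither sign was determined. Actc1 was 0.06 higher in PAC than in sham RV (interval -0.1 to 0.22) and -0.01 in TAC against sham LV (interval -0.17 to 0.16). The PAC change minus the TAC change was 0.07 ± 0.1 (log2, limma adjusted p = 0.8), so the difference was tested and not called.

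The 4 probe sets annotated to both Actb and Actg1, which entered no comparison above, were each higher on all obstructed arrays than on all sham arrays of the same chamber. The share of all genes ordered in this way was not counted, and 18.4% of all genes passed at 1 week of PAC. The group means of the 4 were close (12.38 to 12.48 at 1 week of PAC), so they are not taken as separate measurements. Their differences were 0.42 to 0.49 at 1 week of PAC (limma adjusted p from 0.031 to 0.041), 0.4 to 0.48 at 3 weeks (0.057 to 0.071), 0.25 to 0.29 at 6 weeks (0.16 to 0.22) and 0.15 to 0.16 in TAC (0.98). They cannot be assigned to either gene.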

How the results depend on the processing

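Counts of actin genes passing changed as follows. At 1 week of PAC 3 became 1 with only the arrays compared and 1 without the 3 arrays high in atrial markers; with 1 array left out it was 1 to 3 (1 without the second PAC array or either sham RV array). At 3 weeks 2 became 1 under cyclic loess and 0 without those 3 arrays, and 3 without genes below the median level or with the other variance prior; with 1 array left out it was 0 to 3 (0 without the second PAC array or either sham RV array). At 6 weeks 1 became 0 to 2 (0 without the second PAC array), and over all times 3 became 1 to 3 (1 without either sham RV array). For sham RV against sham LV 0 became 1 without genes below the median level, and 0 to 1 with 1 array left out. With the replicate block the 4 counts were 3, 3, 1 and 3, Actb passing at 3 weeks (adjusted p = 0.049), and no other actin call changed. The cause was not tested.

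In the exact permutation test, leaving out 1 array gave 1.56 to 2.05 for Acta1, 0.22 to 0.27 for Actb, 1.54 to 2.03 for Acta1 minus Actc1, 0.23 to 0.38 for Acta2 and 0.01 to 0.02 for Actc1, which passed under cyclic loess (0.05, adjusted p = 0.042) and without the second sham LV array (adjusted p = 0.021). Acta2 passed without the first sham LV array (adjusted p = 0.021) and without the first 6 week PAC array (adjusted p = 0.042).

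Signs turned only in small, uncalled differences. Under cyclic loess these were Actg2 at 3 weeks of PAC (0.05), Actg2 for 6 against 1 week (-0.02), Actc1 in TAC (0) and Acta2 between sham ventricles (0.04). Without the 3 arrays they were Acta1 and Actb for 3 against 1 week (0.06 each), Acta1 (0.07), Actc1 (0) and Actb (0.03) for 6 against 1 week, and Actc1 (0) and Acta2 (-0.12) in TAC. With 1 array left out the ranges were -0.14 to 0.01 for Actg2 at 3 weeks, -0.07 to 0.13 for Acta2 and -0.26 to 0.12 for Actb at 3 against 1 week, and -0.01 to 0.51 for Acta1 at 6 against 3 weeks. For 6 against 1 week they were -0.55 to 0.07 for Acta1, -0.03 to 0 for Actc1, -0.35 to 0.03 for Actb and -0.09 to 0.14 for Actg2. They were -0.01 to 0 for Actc1 and -0.12 to 0.16 for Acta2 in TAC, and -0.17 to 0.14 for Acta2 between sham ventricles. Each actin gene has 1 probe set, so the mean over probe sets left its values as they were, and Actg2 was not in the fit without low genes.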
